A study of Mus musculus with 12 samples.

Results

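The collagen genes of mouse fat were examined in a brown and a white depot, in animals with 0, 1 or 2 copies of the transgene Ucp1-CreEvdr. The members were all genes of the deposited table whose symbol had the form Col, a number, a and a number, which gave 44 of 24541 genes. Interscapular brown adipose tissue and posterior subcutaneous white adipose tissue (the inguinal depot) were taken from mice that were 6 weeks old, bred from heterozygous transgenic parents, kept at room temperature on standard chow and killed in the morning without treatment. The groups were wild type brown, brown with 1 copy, brown with 2 copies, wild type white, white with 1 copy and white with 2 copies, with 2 libraries of polyadenylated RNA each and 12 libraries in all. The wild type groups carried no copy, and nothing else in the labels set the groups of a depot apart. The transgene is a large genomic construct that expresses Cre recombinase under the control of Ucp1, that is in brown and beige adipocytes. No label states that both libraries of a group are from different animals, so a p-value here reflects the spread from library to library, which can be technical.

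Collagens are secreted or membrane proteins built from alpha chains that wind into a triple helix, and each chain has its own gene. Fibrillar collagens form the tensile fibres of connective tissue, type IV collagens form the sheet of the basement membrane that wraps every adipocyte, capillary and nerve fibre, and type VI collagens form beaded filaments that link fibres, basement membrane and cells. In fat, fibroblasts and adipocyte progenitors are known as the main source of fibrillar collagen, while adipocytes and endothelial cells also make basement membrane and type VI chains. By family the 44 genes comprised 11 fibrillar, 6 type IV, 6 type VI and 9 fibril-associated (FACIT) chains, 3 short-chain network collagens, 1 anchoring fibril collagen, 2 multiplexins, 4 transmembrane collagens and 2 others (Col26a1 and Col28a1).

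Type IV chains are encoded in pairs that lie head to head, and the pairs behaved differently here, so the sequence at the starts of 2 of the pairs is shown first. The promoter windows are those of RefSeq on GRCm38.p6, from 250 bases before to 50 bases after a start, printed 5′ to 3′ on the strand of the gene. Windows were found for 35 of the 44 members (38 windows). In the first 2 windows the capitals mark the 78 bases that the windows share, which read as reverse complements of each other. In the Col4a4 window they mark the 71 bases between the annotated starts of Col4a4 and Col4a3.
Col4a1, chr8:11312777-11313076, minus strand: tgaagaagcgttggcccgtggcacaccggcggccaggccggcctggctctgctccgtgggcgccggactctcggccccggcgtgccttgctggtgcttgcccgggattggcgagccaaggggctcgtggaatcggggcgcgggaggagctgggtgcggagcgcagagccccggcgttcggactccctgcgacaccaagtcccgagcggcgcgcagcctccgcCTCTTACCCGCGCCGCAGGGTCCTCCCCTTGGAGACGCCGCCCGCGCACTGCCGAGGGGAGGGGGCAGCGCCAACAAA
Col4a2, chr8:11312555-11312854, plus strand: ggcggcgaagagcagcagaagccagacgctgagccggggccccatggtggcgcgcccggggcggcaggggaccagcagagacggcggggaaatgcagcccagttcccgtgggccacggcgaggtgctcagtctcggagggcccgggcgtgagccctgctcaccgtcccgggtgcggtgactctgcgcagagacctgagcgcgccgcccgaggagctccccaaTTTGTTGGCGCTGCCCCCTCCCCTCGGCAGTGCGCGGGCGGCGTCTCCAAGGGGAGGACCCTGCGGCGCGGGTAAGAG
Col4a4, chr1:82586800-82587099, minus strand: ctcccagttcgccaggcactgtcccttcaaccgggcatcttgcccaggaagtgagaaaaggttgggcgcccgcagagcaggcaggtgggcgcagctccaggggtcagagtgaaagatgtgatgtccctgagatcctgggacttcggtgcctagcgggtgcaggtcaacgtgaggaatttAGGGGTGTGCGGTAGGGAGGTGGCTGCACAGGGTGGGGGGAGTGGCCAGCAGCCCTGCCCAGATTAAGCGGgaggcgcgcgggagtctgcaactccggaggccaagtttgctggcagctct

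In GENCODE M21 (GRCm38) Col4a1 lies at chr8:11198423-11312826 on the minus strand and Col4a2 at chr8:11312805-11449287 on the plus strand, with first exons that overlap by 22 bases. Col4a4 at chr1:82448423-82586849 and Col4a3 at chr1:82586921-82722059 start 71 bases apart, and Col4a6 and Col4a5 on chromosome X start with 1308 bases between them. The shared stretch of Col4a1 and Col4a2 held the GC box letters GGGCGG on one of its strands and neither CCAAT nor TATAAA, and 73.1% of its bases were G or C. The stretch between Col4a4 and Col4a3 held none of these 3 motifs and was 69.0% G or C, against a median of 52.7% over all windows. Searched on both strands, GGGCGG was present in 60.5% of the 38 collagen windows and 35.7% of all 32851 windows, CCAAT in 34.2% and 37.4%, and TATAAA in 13.2% and 13.6%. The shared stretch of Col4a1 and Col4a2 lies within the annotated genes and that of Col4a4 and Col4a3 between them, so the stretches are unlike regions. These are letters in a window and say nothing of binding.

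Total counts ran from 15679884 to 31814056 per library, and 37 to 44 of the 44 collagen genes had at least 1 read in a library. Reads of Cre were at 0 in all 4 wild type libraries, at 444 to 606 in brown with 1 copy and at 1770 to 3243 in brown with 2 copies. In white adipose tissue Cre was at 83 in 1 library with 1 copy and at 0 in the other 3 transgenic libraries, so it does not check the white labels. Ucp1, which defines brown adipocytes, had 74993 to 233417 reads in brown and 4 to 4267 in white libraries. Summed over 10 skeletal muscle markers, brown wild type libraries held 959 to 2338 CPM (reads per 1000000 reads of the scaled library). Brown libraries with 1 copy held 2.12 to 2.41 and with 2 copies 1.94 to 2.78, with 4 or 5 of the 10 markers at 0 in each, and replicate 1 of white with 1 copy held 1487 against 18.3 in its partner, 5.93 to 6.97 in white wild type and 16.8 to 92.7 with 2 copies. The 9 lymphocyte markers summed to 6.36 to 9.58 CPM in white wild type, 1524 to 1585 with 1 copy and 1594 to 1798 with 2 copies. The 5 lymph node stroma markers summed to 1.56 to 2.41 CPM in white wild type, 1318 to 1545 with 1 copy and 1303 to 1446 with 2 copies, and Glycam1 and Chst4 were at 0 in replicate 1 of white wild type. All 7 epithelial markers were detected in white libraries, with a sum of 325 to 1051 CPM. In whole tissue, fewer cells of a type and less RNA per cell cannot be told apart. The lymphocyte and lymph node lists changed in the same comparisons as the white collagen results below, and their part in them was not tested.

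Collagen reads were 0.376% and 0.358% of all counts in the brown wild type libraries, 0.341% and 0.313% with 1 copy and 0.281% and 0.294% with 2 copies. In white adipose tissue the share was 1.88% and 1.33% in wild type, 0.677% and 0.747% with 1 copy and 0.631% and 0.509% with 2 copies. The wild type white libraries were thus the highest of the 12, and both transgenic white groups stayed above every brown library. Levels between genes were compared per kilobase of exon (union of exons in GENCODE M21). In white wild type Col3a1, the fibrillar chain of soft tissues, led with a mean of 420.5 CPM per kilobase, ahead of Col1a1 at 239, Col4a1 at 232, Col4a2 at 174 and Col1a2 at 141. In brown wild type the order was headed by Col4a1 at 175 and Col4a2 at 138 CPM per kilobase, ahead of Col3a1 at 59.7, Col6a1 at 36 and Col1a1 at 29.6. Col4a1, Col4a2, Col3a1, Col6a1 and Col1a1 kept ranks 1 to 5 in that order in all 3 brown genotypes. In white the first rank was held by Col3a1 in every genotype, while Col4a2 went from rank 4 in wild type and with 1 copy to rank 5 with 2 copies. At the low end, Col2a1, the cartilage fibril chain, had 0 to 7 reads and Col25a1, a transmembrane collagen of neurons, 0 to 6 reads in a library.

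**Figure D1:**
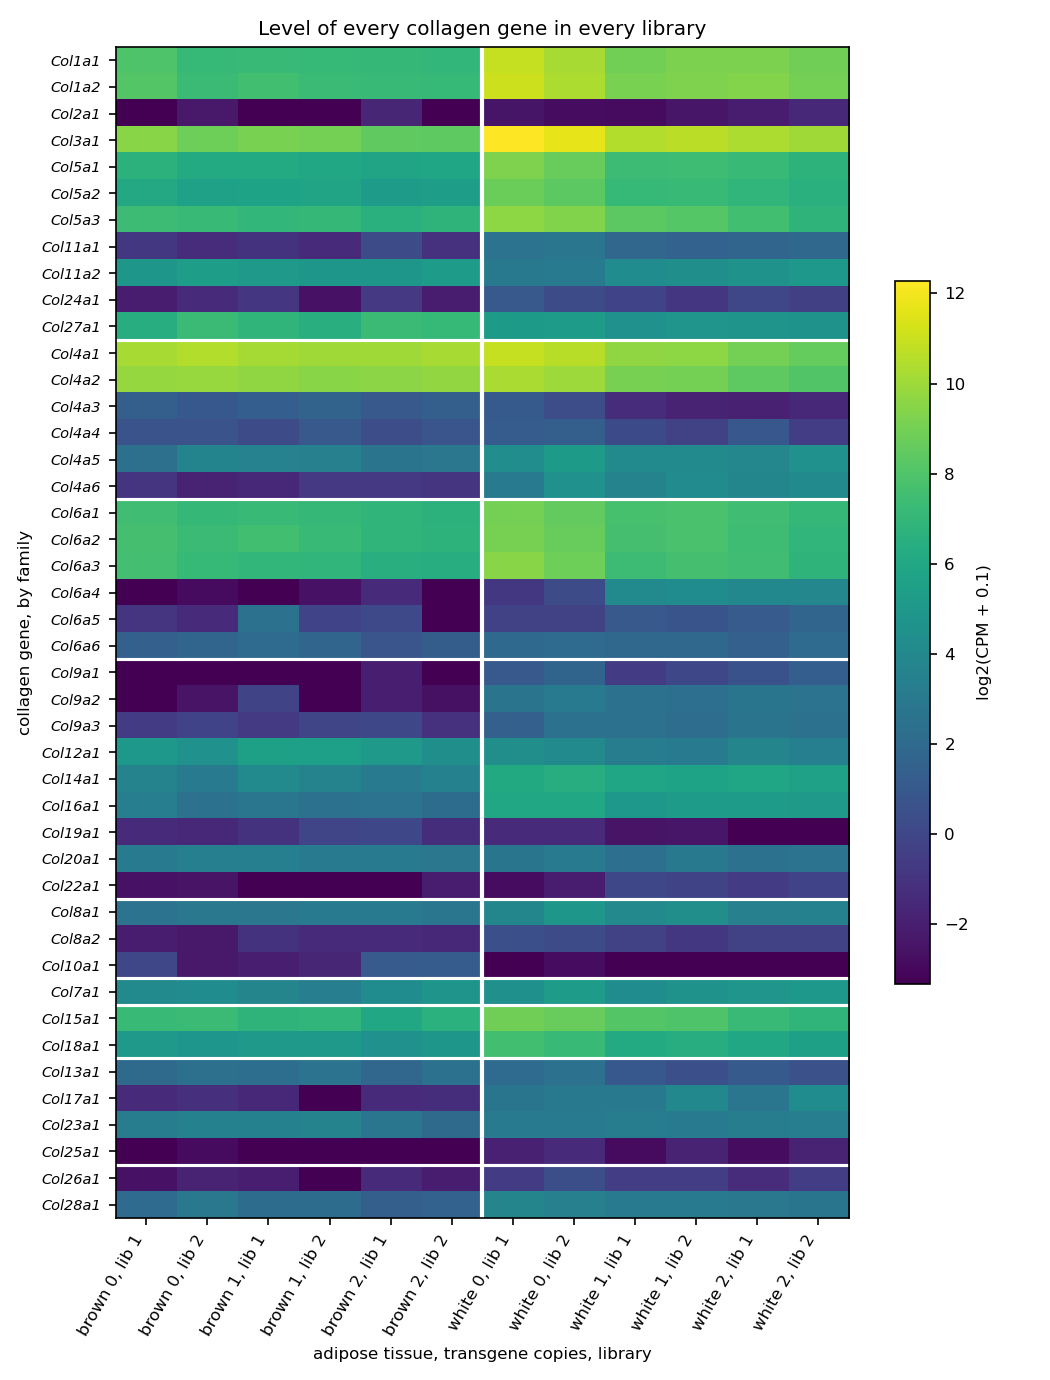
Colour gives log2(CPM + 0.1) of each of the 44 collagen genes (rows, grouped by family with white lines) in each of the 12 libraries (columns, named by tissue, transgene copies and library). Col1a1, Col3a1 and Col6a3 are brightest in the 2 white wild type libraries, where Col3a1 reached 4942 and 3312 CPM, while Col4a1 lay between 1043 and 1399 CPM in the 6 brown libraries.

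White adipose tissue showed a broad fall of collagen transcripts with the transgene. With 1 copy against wild type, 26 of the 40 collagen genes tested passed an adjusted p of 0.05, 22 lower and 4 higher (edgeR's quasi-likelihood test, adjusted over all genes tested). The background was high, since 52% of all 15287 genes passed, 28.4% higher and 23.6% lower. With 2 copies 25 of 40 passed, 21 lower and 4 higher, against 61% of all genes, 32.1% higher and 28.9% lower. The share of collagen genes called was near that of all genes. These shares of all genes are also the background for each family and marker list in white adipose tissue below. The median log2 fold change of the tested collagen genes was -0.95 with 1 copy and -0.87 with 2 copies, where the medians of all genes were 0.012 and 0.0099. In these calls wild type and transgenic values did not overlap. With 2 libraries a group this nearly follows from passing the test, so it adds no support. The share of all genes without overlap was not counted. Of the calls, Col4a3 entered the test through the wild type libraries alone and Col22a1 through the transgenic ones alone. Replicate 1 of white with 1 copy was the library with the muscle transcripts, and their part in these calls was not tested. Leaving out either library of that group lowered the number of calls, among collagen genes and among all genes.

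**Figure D2:**
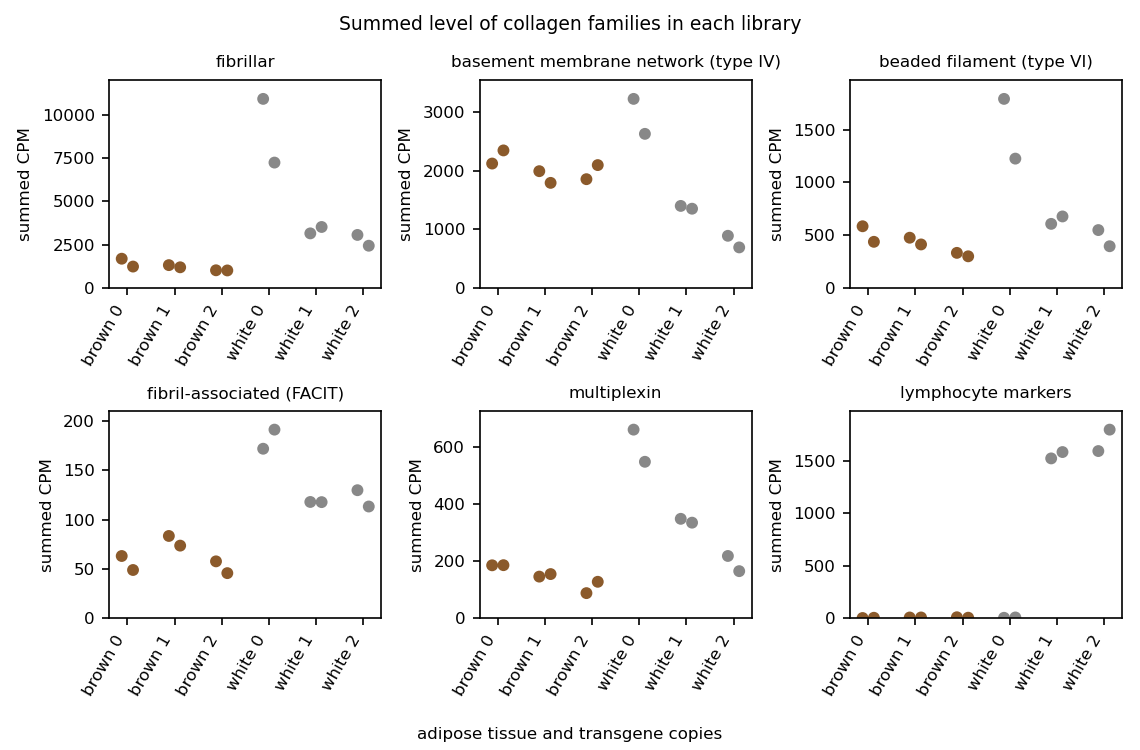
Summed CPM in each library (points; brown points brown adipose, grey points white adipose; tissue and transgene copies on the horizontal axis) for 5 collagen families and for the 9 lymphocyte markers, each panel with its own axis from 0. The fibrillar sum was 7248 to 10938 CPM in white wild type and 3147 to 3518 and 2432 to 3057 with 1 and 2 copies, while the lymphocyte markers were low in white wild type and high in all 4 white transgenic libraries.

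Among fibrillar chains 8 of 10 tested were lower and 1 was higher with either dose, with a family median log2 fold change of -1.34 and -1.56. Col1a1, which encodes the main chain of type I collagen, was at 1951 and 1188 CPM in the wild type libraries, 504 and 583 with 1 copy and 596 and 475 with 2 copies. Its partner Col1a2 was at 2178 and 1332 CPM in the wild type libraries, 558 and 622 with 1 copy and 659 and 527 with 2 copies. Both fell, Col1a1 by a log2 fold change of -1.53 ± 0.27 with 1 copy (adjusted p = 0.00591) and -1.55 ± 0.27 with 2 copies (adjusted p = 0.00396), and Col1a2 by -1.57 ± 0.26 and -1.57 ± 0.26, with no detectable difference between the doses (-0.021 ± 0.26 for Col1a1, adjusted p = 0.975). Col3a1 had 4942 and 3312 CPM in the wild type libraries, 1404 and 1647 with 1 copy and 1282 and 1051 with 2 copies. All 4 transgenic values lay under the lower wild type one, a fall of -1.44 ± 0.23 (adjusted p = 0.00366) and -1.82 ± 0.23 (adjusted p = 9.68e-04). The 8 fibroblast and progenitor markers, 5 lower and 2 higher with 1 copy and 4 lower and 2 higher with 2 copies, summed to 939 to 1039 CPM in wild type, 767 to 791 with 1 copy and 879 to 1003 with 2 copies, so the 2-copy range overlapped with that of wild type. Thy1 weighed on this sum, with 2449 and 1885 reads in wild type, 6661 and 6187 with 1 copy and 8180 and 9883 with 2 copies. The overlap therefore does not show that most markers of the list kept their level. The 5 macrophage markers, 3 of them lower with 1 copy and 4 with 2 copies, summed to 281 to 550.4 CPM in wild type, 173 to 180.4 with 1 copy and 158 to 199 with 2 copies. None of either list was at 0, and their part in the fall of the fibrillar chains was not tested.

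The type V chains, which nucleate type I fibrils and set their width, followed. Col5a1 was at 600.2 and 395 CPM in the wild type libraries, 167 and 172 with 1 copy and 154 and 107 with 2 copies. Col5a2, its usual partner and the neighbour of Col3a1 on chromosome 1, was at 442 and 325 CPM in the wild type libraries, 137 and 151 with 1 copy and 124 and 97.2 with 2 copies. Col5a3, a chain of more restricted expression, was at 773 and 644 CPM in the wild type libraries, 329 and 291 with 1 copy and 187 and 113 with 2 copies. In each of the 3 genes the wild type libraries were the highest and the 2 libraries with 2 copies the lowest. Their log2 fold changes with 1 copy were -1.56 ± 0.26, -1.41 ± 0.19 and -1.19 ± 0.26 and with 2 copies -1.93 ± 0.27, -1.79 ± 0.20 and -2.24 ± 0.26, with adjusted p between 6.39e-04 and 0.0125. The Col5a3 call with 1 copy was lost without replicate 1 of wild type (adjusted p = 0.0684) or without replicate 1 (0.0531) or 2 (0.0737) of that dose.

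Type XI chains, best known from cartilage fibrils, moved in opposite directions. Col11a1 was at 6.05 and 6.82 CPM in the wild type libraries, 3.38 and 2.93 with 1 copy and 3.27 and 3.58 with 2 copies, a fall of -1.03 ± 0.19 and -0.91 ± 0.19. Col11a2 was at 7.85 and 8.02 CPM in the wild type libraries, 19.4 and 21.2 with 1 copy and 24.7 and 31.4 with 2 copies. Every transgenic Col11a2 value was above both wild type values, and the rise was 1.36 ± 0.14 with 1 copy (adjusted p = 8.49e-04) and 1.82 ± 0.15 with 2 copies (adjusted p = 1.81e-04). The cartilage and tendon markers did not pass in either comparison (0 of 3 tested), and their sum was 12.8 to 15.6 CPM in wild type, 14 to 24.9 with 1 copy and 15.3 to 19.9 with 2 copies. Col27a1, a fibrillar chain known from developing cartilage, was at 35.8 and 37.3 CPM in the wild type libraries, 23.7 and 27.9 with 1 copy and 26.3 and 25.6 with 2 copies, a fall of -0.51 ± 0.11 and -0.49 ± 0.10 that was lost in the fit of all 12 libraries (adjusted p = 0.144 and 0.137), without replicate 1 of white with 1 copy (0.0514) and without replicate 2 of white with 2 copies (0.0521). Col24a1 did not pass, with log2 fold changes of -1.27 ± 0.48 and -0.95 ± 0.47, and Col2a1 had too few reads to be tested.

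In the type IV family 3 of 6 chains fell and none rose with either dose, a share near the 52% and 61% of all genes called. Col4a1, the major basement membrane chain, was at 1917 and 1544 CPM in the wild type libraries, 818 and 792 with 1 copy and 512 and 384 with 2 copies. Col4a2, with which it assembles, was at 1279 and 1025 CPM in the wild type libraries, 549 and 523 with 1 copy and 345 and 263 with 2 copies. The 3 groups were separate in both genes, in the order wild type, 1 copy, 2 copies. Col4a1 fell by -1.11 ± 0.18 with 1 copy (adjusted p = 0.00393) and -1.95 ± 0.19 with 2 copies (adjusted p = 3.31e-04), and Col4a2 by -1.11 ± 0.17 and -1.92 ± 0.18. Between the doses Col4a1 differed by -0.84 ± 0.18 (adjusted p = 0.0795), which did not pass. Col4a3, a chain of the kidney, lung and eye networks, was at 47 and 27 reads in wild type, 8 and 4 with 1 copy and 4 and 7 with 2 copies. Its log2 fold changes were -2.73 ± 0.51 (adjusted p = 0.00638) and -2.93 ± 0.52 (adjusted p = 0.00358). It entered the white test through its wild type libraries alone and so had to differ. Col4a4, Col4a5 and Col4a6 did not pass, with log2 fold changes of -1.47 ± 0.53, -0.67 ± 0.33 and -0.045 ± 0.48 with 1 copy and -1.04 ± 0.52, -0.50 ± 0.33 and -0.028 ± 0.48 with 2 copies. The 5 adipocyte markers, of which all 5 were lower with either dose, summed to 12734 to 13646 CPM in wild type, 6306 to 7399 with 1 copy and 2844 to 3966 with 2 copies, with none at 0. The 6 endothelial markers, 4 lower and 1 higher with 1 copy and 5 lower with 2 copies, summed to 789 to 799.5 CPM in wild type, 701 to 711 with 1 copy and 499 to 539 with 2 copies, also with none at 0. The part of both lists in the fall of Col4a1 and Col4a2 was not tested.

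Type VI collagen split into the common chains, which fell, and the rarer alternative chains, which did not. Col6a1 was at 511 and 367 CPM in the wild type libraries, 211 and 223 with 1 copy and 177 and 136 with 2 copies. Col6a2 was at 544 and 401 CPM in the wild type libraries, 205 and 226 with 1 copy and 172 and 124 with 2 copies. Col6a3, whose C-terminal fragment is the adipose signal endotrophin, was at 732 and 452 CPM in the wild type libraries, 168 and 203 with 1 copy and 178 and 111 with 2 copies. All 3 were highest in the 2 wild type libraries and did not overlap with either transgenic group. With 2 copies they fell by -1.48 ± 0.20, -1.67 ± 0.22 and -2.04 ± 0.33 (adjusted p = 0.00154, 0.00137 and 0.00378). With 1 copy the falls were -1.02 ± 0.20, -1.13 ± 0.22 and -1.68 ± 0.33 (adjusted p = 0.00859, 0.00787 and 0.00981), and all 3 missed the threshold without replicate 1 of that group (0.0556, 0.052 and 0.0581).

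Col6a4, Col6a5 and Col6a6 encode alternative type VI chains and lie side by side on chromosome 9 on the minus strand (Col6a4 at chr9:105989454-106096783, Col6a5 at chr9:105856078-105960643 and Col6a6 at chr9:105687809-105828160). Col6a4 was at 0.482 and 1.11 CPM in the wild type libraries, 16.7 and 18.9 with 1 copy and 15.1 and 15 with 2 copies. From 11 and 25 reads in wild type it went to 445 and 426 with 1 copy and 361 and 424 with 2 copies, the largest log2 fold change among the 40 tested collagens. The log2 fold changes were 4.47 ± 0.31 (adjusted p = 1.61e-04) and 4.23 ± 0.31 (adjusted p = 1.39e-04), and neither call was lost in any alternative run. Col6a5 was at 0.746 and 0.758 CPM in the wild type libraries, 1.91 and 1.55 with 1 copy and 2.1 and 3.36 with 2 copies and rose by 1.20 ± 0.35 (adjusted p = 0.0308) and 1.86 ± 0.35 (adjusted p = 0.00459). The 1-copy call of Col6a5 was lost without any 1 of the 4 libraries compared (adjusted p up to 0.133), and both calls were lost in the fit of all 12 libraries (0.34 and 0.133). Col6a6 differed by -0.14 ± 0.26 and -0.22 ± 0.26 and did not pass. The rises of Col6a4, Col6a5, Col11a2 and Col22a1 occurred in the same 4 libraries as the rise of all 9 tested lymphocyte markers and all 5 lymph node stroma markers, and the part of those cells in them was not tested.

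FACIT collagens sit on the surface of fibrils. With 1 copy 4 of 8 tested were lower and 1 higher, and with 2 copies 3 were lower and 1 higher, with family medians of -0.48 and -0.40. Of all genes in white, 52% with 1 copy and 61% with 2 copies were called in either direction. Col16a1 was at 63.2 and 62.6 CPM in the wild type libraries, 31.9 and 36.9 with 1 copy and 36.8 and 33.8 with 2 copies. Its fall of -0.87 ± 0.10 and -0.83 ± 0.10 had adjusted p = 0.00115 and 7.91e-04. Col12a1, a fibril surface chain of tendon and fascia, was at 20.9 and 17.1 CPM in the wild type libraries, 9.49 and 8.57 with 1 copy and 13.8 and 10.3 with 2 copies and fell by -1.07 ± 0.19 (adjusted p = 0.00529) and -0.66 ± 0.19 (adjusted p = 0.0237). The second of these calls was lost without replicate 1 of wild type (0.0896) or replicate 2 of the 2-copy group (0.123). Col14a1, which binds decorin on fibrils, was at 69.7 and 84.4 CPM in the wild type libraries, 58.3 and 52.8 with 1 copy and 58.6 and 48.1 with 2 copies and fell by -0.47 ± 0.14 and -0.53 ± 0.14. Its calls were lost in the fit of all 12 libraries (0.107 and 0.0657), without replicate 2 of wild type (0.103 and 0.0586), with 1 copy without replicate 1 (0.0737) or 2 (0.144) of that dose, and with 2 copies without replicate 2 of that dose (0.0913). Col22a1, known from muscle and tendon junctions, had 1 and 3 reads in wild type, 25 and 18 with 1 copy and 14 and 22 with 2 copies, a rise of 3.22 ± 0.59 (adjusted p = 0.00577) and 2.88 ± 0.60 (adjusted p = 0.00682). It entered the test through its transgenic libraries alone and so had to differ. The replicate with muscle transcripts had 25 Col22a1 reads against 18 in its partner. Of the type IX chains, Col9a1 had 44 and 71 reads in wild type, 15 and 21 with 1 copy and 34 and 68 with 2 copies, and passed with 1 copy alone (-1.77 ± 0.45, adjusted p = 0.0192). That call was lost without replicate 2 of wild type (0.0726) or replicate 1 of the 1-copy group (0.102). Col9a2, Col9a3 and Col20a1 did not pass with either dose, with log2 fold changes from -0.49 to 0.54.

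Both multiplexins, basement membrane collagens whose C-terminal parts include endostatin in the case of Col18a1, fell with each dose. Col15a1 was at 470.1 and 395 CPM in the wild type libraries, 274 and 252 with 1 copy and 154 and 119 with 2 copies, with no overlap among the 3 groups. It fell by -0.72 ± 0.16 with 1 copy (adjusted p = 0.0106) and -1.67 ± 0.16 with 2 copies (adjusted p = 3.43e-04), and the first call was lost without replicate 2 of the 1-copy group (0.0707). Col18a1 was at 191 and 154 CPM in the wild type libraries, 75.4 and 84 with 1 copy and 65.1 and 47 with 2 copies and fell by -1.12 ± 0.19 (adjusted p = 0.00545) and -1.62 ± 0.19 (adjusted p = 9.53e-04). Col13a1, a transmembrane collagen of the neuromuscular junction and other contact sites, was at 4.21 and 5.53 CPM in the wild type libraries, 1.88 and 1.29 with 1 copy and 2.01 and 1.35 with 2 copies, a fall of -1.61 ± 0.33 and -1.54 ± 0.32. Its calls were lost without replicate 2 of the 1-copy group (0.0525) and without replicate 2 of the 2-copy group (0.0508). Col28a1, a collagen of peripheral nerve, fell by -0.50 ± 0.17 and -0.78 ± 0.17, with adjusted p = 0.0472 and 0.00809. The 1-copy call of Col28a1 was lost in 7 of 11 alternatives (adjusted p up to 0.19, without replicate 1 of that dose), and the 2-copy call without replicate 2 of the 2-copy group (0.0584). The 5 Schwann cell markers, 4 of them lower with each dose, summed to 517 to 576 CPM in wild type and 188 to 210.0 and 219 to 225 with 1 and 2 copies, and their part in the Col28a1 fall was not tested. Col7a1, Col8a1, Col8a2, Col17a1, Col23a1 and Col26a1 did not pass with either dose, with log2 fold changes between -1.03 (Col8a2, 1 copy) and 0.90 (Col17a1, 2 copies). Col10a1, Col19a1 and Col25a1 had too few reads in white adipose tissue to be tested.

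**Figure D3:**
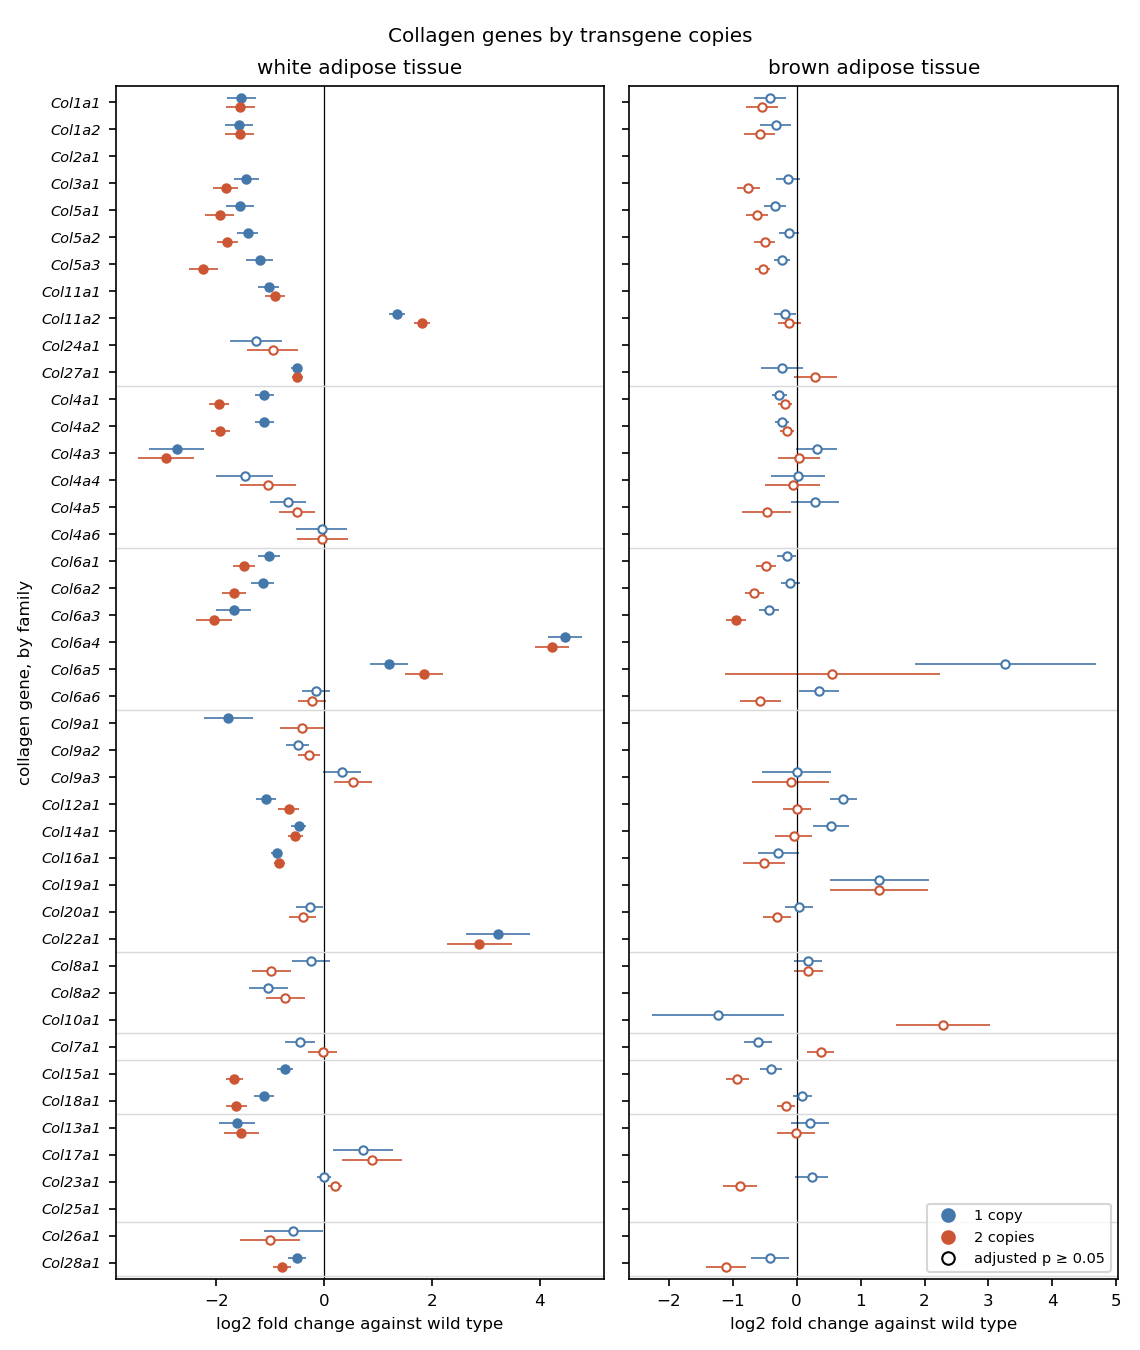
Log2 fold change against wild type (points, horizontal axis; bars give the standard error) of each tested collagen gene, grouped by family, with 1 copy (blue) and 2 copies (red) in white (left) and brown adipose tissue (right). The horizontal scales differ. Filled points had an adjusted p under 0.05, which was so for 26 and 25 genes in white and for 0 and 1 gene, Col6a3, in brown.

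Between the 2 doses in white adipose tissue, 1 of 40 collagen genes passed, against 1.86% of all genes (0.0327% higher and 1.83% lower). This was Col15a1, lower with 2 copies by -0.94 ± 0.16 (adjusted p = 0.0491). It missed the threshold with another scaling (0.0522) and without any 1 of the 4 libraries compared (0.087 to 0.34). A further 7 members had an unadjusted p under 0.05, and 21 of the 40 log2 fold changes lay below 0.

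In brown adipose tissue few collagen differences passed. With 1 copy none of 32 tested collagen genes passed, against 4.07% of 13414 genes (1.52% higher and 2.55% lower), and 4 had an unadjusted p under 0.05. With 2 copies Col6a3 passed, 1 of 32 against 1.29% of all genes (0.47% higher and 0.82% lower), 11 had an unadjusted p under 0.05, and 24 of the 32 log2 fold changes were below 0 (median -0.24, all genes -0.0007). Between 2 copies and 1 copy none passed, against 1.95% of all genes (1.24% higher and 0.708% lower), 11 had an unadjusted p under 0.05, and 25 of 32 lay below 0. The DESeq2 Wald test, as an alternative, gave 1, 6 and 6 collagen genes in these 3 comparisons. It called 1044, 683 and 974 of all 13414 genes in the same order, also more than the main test. Both wild type libraries weighed on the counts. Without replicate 2 of wild type, more collagen genes and more of all genes were called at both doses against wild type. Without replicate 1 of wild type this was so with 2 copies and not with 1 copy. Between the doses more of both were called without either of these libraries. The 10 muscle markers, high in brown wild type alone, were in the same contrast, and their part in it was not tested.

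Col6a3 was at 198 and 139 CPM in the wild type libraries, 129 and 121 with 1 copy and 88.6 and 84.3 with 2 copies. Its values with 2 copies were the lowest and did not overlap with the others, and the fall against wild type was -0.95 ± 0.16 (adjusted p = 0.0402). The call was lost in the fit of all 12 libraries (0.112) and without replicate 1 (0.0927) or 2 (0.0896) of the 1-copy group or replicate 1 (0.142) or 2 (0.155) of the 2-copy group. Col6a1 was at 182 and 133 CPM in the wild type libraries, 149.6 and 134 with 1 copy and 119 and 105 with 2 copies, and Col6a2 at 199.9 and 160.1 CPM in the wild type libraries, 186 and 151 with 1 copy and 120.1 and 106 with 2 copies. Neither passed with 2 copies (-0.48 ± 0.16, adjusted p = 0.172, and -0.66 ± 0.15, adjusted p = 0.080).

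Among the fibrillar chains of brown adipose tissue, Col1a1 was at 248 and 141 CPM in the wild type libraries, 155 and 137 with 1 copy and 134 and 129.8 with 2 copies. Col1a2 was at 270.4 and 158 CPM in the wild type libraries, 185 and 156 with 1 copy and 147 and 138 with 2 copies. Col3a1 was at 709 and 463 CPM in the wild type libraries, 560.2 and 513 with 1 copy and 349.9 and 341 with 2 copies. Replicate 1 of wild type was the highest library for all 3 genes. The log2 fold changes with 2 copies were -0.55 ± 0.25, -0.58 ± 0.25 and -0.75 ± 0.18 with adjusted p = 0.319, 0.288 and 0.103, so none passed. Col4a1 was at 1220.2 and 1399 CPM in the wild type libraries, 1141 and 1043 with 1 copy and 1080.2 and 1216 with 2 copies, and Col4a2 at 894 and 933 CPM in the wild type libraries, 837 and 733 with 1 copy and 766 and 869.7 with 2 copies. Neither passed, with log2 fold changes of -0.27 ± 0.11 and -0.18 ± 0.11 for Col4a1 with 1 and 2 copies (adjusted p = 0.233 and 0.434). The 12 members with too few brown reads to be tested were Col2a1, Col4a6, Col6a4, Col8a2, Col9a1, Col9a2, Col11a1, Col17a1, Col22a1, Col24a1, Col25a1 and Col26a1. Of the other members tested, Col6a5 had 75 reads in replicate 1 of the 1-copy group and 0 to 14 in the other 5 brown libraries, and Col10a1, the hypertrophic cartilage collagen, had 13 and 3 reads in wild type, 2 and 3 with 1 copy and 30 and 35 with 2 copies (2.29 ± 0.73 with 2 copies, adjusted p = 0.167). Col10a1 lies inside Nt5dc1, on the opposite strand, and the strand setting of the counting was not given.

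Whether the difference between transgenic and wild type libraries, here called the effect, varied between the depots was tested as an interaction in 1 fit of all 12 libraries. Muscle markers were high in brown wild type, and lymphocyte and lymph node markers in the white transgenic libraries. Their part in this contrast cannot be told apart from that of the genotype. With 1 copy the effect differed for 18 of 42 collagen genes, 16 with a higher (less negative) effect in brown and 2 with a lower one, against 32.6% of all genes, 13.8% higher and 18.8% lower. With 2 copies it differed for 16 of 42, 14 higher and 2 lower, against 42.2%, 20.6% higher and 21.7% lower. Another scaling moved the median of all genes by 0.14 (1 copy) and 0.12 (2 copies) on the log2 scale, and no collagen call changed sign. For Col4a1 the effect in brown exceeded that in white by 0.84 ± 0.23 with 1 copy (adjusted p = 0.0187) and 1.76 ± 0.23 with 2 copies (adjusted p = 2.46e-04), and for Col4a2 by 0.89 ± 0.22 and 1.76 ± 0.22. The 1-copy call of Col4a1 was lost without replicate 1 of brown wild type (0.0631), of brown with 1 copy (0.0702) or of white wild type (0.0563) and without replicate 2 of white with 1 copy (0.0552), that of Col4a2 without replicate 1 of brown with 1 copy (0.054), and the 2-copy calls of both were kept in every alternative run. Col11a2 went the other way, with -1.53 ± 0.25 and -1.94 ± 0.25. It was at 30.9 and 42.3 CPM in the wild type libraries, 34.2 and 31 with 1 copy and 30.4 and 37.3 with 2 copies in brown, where the groups overlapped. Col6a1, Col6a2, Col5a1, Col5a2, Col5a3, Col3a1, Col18a1, Col13a1 and Col4a3 also passed at both doses, while Col1a1 did at neither (1.12 ± 0.40, adjusted p = 0.060, and 0.99 ± 0.40, adjusted p = 0.0748). Of these, Col5a2, Col18a1 and Col4a3 kept both calls in every alternative run, and Col11a2 did as well. With 1 copy the calls of Col5a3, Col6a1, Col5a1, Col6a2 and Col13a1 were lost in 7, 6, 5, 4 and 2 of 16 alternatives, each time with 1 library left out (adjusted p up to 0.115). With 2 copies those of Col3a1, Col6a2, Col13a1 and Col6a1 were lost in 5, 4, 4 and 3 of 16, again with 1 library left out (up to 0.105). Col12a1 passed with 1 copy (1.81 ± 0.31, adjusted p = 0.00237), being at 31.4 and 23.7 CPM in the wild type libraries, 46.6 and 44.9 with 1 copy and 33.1 and 21.8 with 2 copies in brown. Leaving out 1 library lowered the collagen count for 1 copy in every run, most without replicate 1 of brown with 1 copy. For 2 copies the count moved both ways and was lowest without replicate 2 of white with 2 copies.

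Brown values of other members that differed between the depots in their response were as follows. Col5a1 was at 105 and 72.9 CPM in the wild type libraries, 74.2 and 66.1 with 1 copy and 54.2 and 60.3 with 2 copies. Col5a2 was at 68.6 and 48 CPM in the wild type libraries, 52.6 and 54.8 with 1 copy and 39.8 and 42 with 2 copies. Col5a3 was at 164 and 142 CPM in the wild type libraries, 126 and 136 with 1 copy and 95.6 and 115 with 2 copies. Col5a1 and Col5a2 lay below both white libraries of the same genotype at every dose, and Col5a3 did so in wild type and with 1 copy. Col18a1 was at 32.7 and 28.9 CPM in the wild type libraries, 32.5 and 33.2 with 1 copy and 23.8 and 30.6 with 2 copies. Col4a3 was at 2.49 and 1.89 CPM in the wild type libraries, 2.42 and 2.98 with 1 copy and 1.93 and 2.5 with 2 copies. Col13a1 was at 4.01 and 5.25 CPM in the wild type libraries, 4.92 and 5.95 with 1 copy and 3.5 and 5.69 with 2 copies. In these 3 genes brown wild type overlapped with both transgenic groups, whereas the white transgenic libraries were all below white wild type. Col15a1 was at 153 and 158 CPM in the wild type libraries, 114 and 122 with 1 copy and 64.9 and 97.9 with 2 copies, and Col14a1 at 12.7 and 8.08 CPM in the wild type libraries, 17.5 and 12.7 with 1 copy and 8.21 and 11.6 with 2 copies. Col23a1, a transmembrane collagen, was at 9.13 and 11.2 CPM in the wild type libraries, 11.6 and 12.5 with 1 copy and 6.85 and 4.13 with 2 copies, with the 2-copy libraries lowest, while white libraries held 8.47 and 8.96 CPM in the wild type libraries, 9.15 and 8.26 with 1 copy and 9.86 and 10.2 with 2 copies. Its interaction with 2 copies was -1.11 ± 0.31 (adjusted p = 0.0161), lost without replicate 2 of brown wild type (0.0558). Col8a2, a short-chain collagen of the cornea, had 2 to 5 reads in brown libraries and 11 to 30 in white ones, and Col11a1 had 4 to 15 and 66 to 153, so their interactions rest on few brown reads. By library Col8a2 had 2 and 3 reads in wild type, 5 and 4 with 1 copy and 4 and 4 with 2 copies in brown and 30 and 26, 19 and 11 and 18 and 21 in the same order in white. Col19a1, a chain of interneurons and muscle, had 4 and 6 reads in wild type, 5 and 12 with 1 copy and 13 and 5 with 2 copies in brown and 6 and 6, 2 and 2 and 0 and 0 in the same order in white.

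Comparing the depots as such, as the mean over the 3 genotypes, 39 of 42 collagen genes differed, 29 lower and 10 higher in brown, against 81.3% of all 15559 genes, 46.2% lower and 35% higher. The median collagen log2 difference, brown minus white, was -1.21, and that of all genes -0.19. Of the 42, 12 had enough reads for the test in 1 depot alone, 10 in white and 2 (Col10a1 and Col19a1) in brown, and so had to differ. Of the 30 that had enough in both depots, 27 differed, 8 higher and 19 lower in brown. In wild type alone 30 of 42 differed, 27 of them lower in brown, against 61.1% of all genes (29% higher and 32.1% lower). With 1 copy 32 differed, 9 higher and 23 lower in brown, against 70.1% of all genes (29.4% higher and 40.6% lower). With 2 copies 33 differed, 8 higher and 25 lower, against 74.4% (32.1% higher and 42.3% lower). As the mean over genotypes, the 10 members higher in brown were Col4a1, Col4a2, Col4a3, Col10a1, Col11a2, Col12a1, Col13a1, Col19a1, Col20a1 and Col27a1. In wild type alone 3 members passed as higher in brown. There Col4a2 had a mean of 913 CPM in brown and 1152 in white, Col13a1 4.63 and 4.87 and Col19a1 0.252 and 0.265. The place of these 3 genes among the 10 rests on the transgenic groups. For Col4a1 the depot difference was -0.40 ± 0.16 in wild type (adjusted p = 0.0515, not passing), 0.44 ± 0.16 with 1 copy (adjusted p = 0.032) and 1.36 ± 0.16 with 2 copies (adjusted p = 2.81e-05). The 1-copy call was lost without any 1 of the 4 libraries compared (adjusted p up to 0.149), and the 2-copy call was kept in every alternative run. Col27a1 was at 83.9 and 157 CPM in the wild type libraries, 120.2 and 87.5 with 1 copy and 157 and 138 with 2 copies in brown, above all 6 white libraries, and differed by 2.08 ± 0.16 (adjusted p = 1.16e-06). Col1a1 and Col3a1 were lower in brown by -2.31 ± 0.17 and -2.03 ± 0.14, and Col6a1, Col6a2 and Col6a3 by -0.86 ± 0.11, -0.71 ± 0.11 and -1.04 ± 0.16. The fibroblast and progenitor markers summed to 247 to 282 CPM in brown and 939 to 1039 in white wild type, with none of the 8 at 0, and their part in these differences was not tested.

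The 10 members with the largest difference between depots mostly had few reads in 1 of the depots. All but Col9a3 entered the test through 1 depot alone, so their fitted differences follow in part from the filter and describe the levels. Col9a1, a FACIT chain of cartilage, had 2 reads in all in the 6 brown libraries and 15 to 71 in each white one, with a fitted difference of -6.78 ± 0.69. In wild type, where both brown libraries were at 0, its level in white was at least 34.8-fold higher, with the brown group set to 3 counts over its 2 libraries. Col9a2, its partner, was at 0 and 0.0755 CPM in the wild type libraries, 0.832 and 0 with 1 copy and 0.143 and 0.0625 with 2 copies in brown and 6.27 and 8.78 CPM in the wild type libraries, 5.55 and 5.15 with 1 copy and 6.54 and 5.91 with 2 copies in white. Col9a3, the last type IX chain, was at 0.553 and 0.793 CPM in the wild type libraries, 0.529 and 0.851 with 1 copy and 0.928 and 0.375 with 2 copies in brown and 2.68 and 5.71 CPM in the wild type libraries, 5.85 and 4.71 with 1 copy and 6.38 and 5.77 with 2 copies in white. The type IX genes were thus separate between the depots in every genotype, with differences of -5.56 ± 0.49 for Col9a2 and -2.91 ± 0.28 for Col9a3. Col9a3 overlaps Tcfl5 on the other strand. Col6a4 was at 0 and 0.0378 CPM in the wild type libraries, 0 and 0.0709 with 1 copy and 0.286 and 0 with 2 copies in brown, a difference of -6.73 ± 0.45. Col17a1, a transmembrane collagen of epithelial hemidesmosomes, was at 0.277 and 0.34 CPM in the wild type libraries, 0.227 and 0 with 1 copy and 0.286 and 0.313 with 2 copies in brown and 6.49 and 7.71 CPM in the wild type libraries, 7.95 and 15.6 with 1 copy and 6.96 and 19.4 with 2 copies in white, a difference of -5.52 ± 0.44. The 7 epithelial markers were at 0.438 to 2.84 CPM in sum in brown, where Krt14 and Krt5 had no reads in any library, and their part in the Col17a1 difference was not tested. Col4a6, a basement membrane chain of epithelia and smooth muscle, was at 0.415 and 0.189 CPM in the wild type libraries, 0.227 and 0.496 with 1 copy and 0.50 and 0.438 with 2 copies in brown and 8.42 and 23.2 CPM in the wild type libraries, 12.5 and 18.2 with 1 copy and 13.9 and 17 with 2 copies in white, a difference of -5.41 ± 0.35. Col11a1 was at 0.484 and 0.302 CPM in the wild type libraries, 0.378 and 0.284 with 1 copy and 1.07 and 0.375 with 2 copies in brown, a difference of -3.19 ± 0.25, and Col22a1 had 0 to 2 reads in brown libraries, a fitted difference of -3.56 ± 0.71 that rests on the white transgenic libraries, since wild type had 1 and 2 reads in brown and 1 and 3 in white, and brown with 1 copy had none. Higher in brown were Col10a1, with 2 to 35 reads against 0 or 1 in white (5.81 ± 0.98), and Col19a1, with 4 to 13 against 0 to 6 (3.13 ± 0.57), the white transgenic libraries having 0 or 2 reads of Col19a1. The remaining calls lower in brown included Col16a1 at 9.89 and 5.44 CPM in the wild type libraries, 6.88 and 5.6 with 1 copy and 6.14 and 4.44 with 2 copies in brown, with the smallest adjusted p of the family (-2.76 ± 0.15, adjusted p = 3.63e-08).

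Partner chains of one molecule kept their ratio to different degrees. Col1a1 reads stood to Col1a2 reads at 0.834 to 0.942 in brown and 0.892 to 0.939 in white libraries, although the Col1a1 level itself spanned 129.8 to 1951 CPM. The ratio of Col4a1 to Col4a2, which share the stretch printed in capitals above, was 1.36 to 1.5 in brown and 1.46 to 1.52 in white, so the highest of the 12 ratios was 1.11 times the lowest. The other head-to-head pairs were not constant. Col4a3 to Col4a4 was 1.28 to 2.29 in brown and 0.0952 to 0.922 in white, lowest in replicate 1 of white with 2 copies with 4 against 42 reads (exact Clopper-Pearson 95% interval of the ratio 0.0248 to 0.262, counting error only). Col4a5 to Col4a6 was 12.6 to 68.6 in brown and 0.949 to 2.39 in white, so the depots did not overlap. Between the depots Col4a6 differed as given above and Col4a5 by -1.24 ± 0.23. In type VI, Col6a1 to Col6a2 ran from 0.804 to 1.1 over the 12 libraries and Col6a3 to Col6a1 from 0.743 to 1.43. Across families the balance shifted with depot: Col1a1 to Col4a1 was 0.10 to 0.203 in brown and 0.617 to 1.24 in white.

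**Figure D4:**
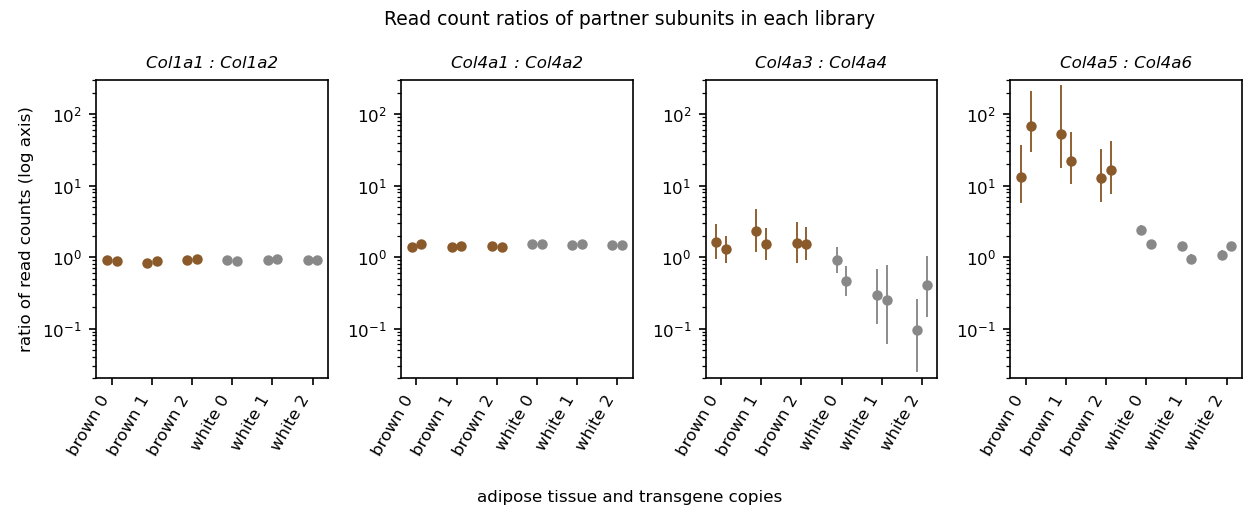
Ratio of read counts of 2 partner chains (log axis) in each library (points; brown points brown adipose, grey points white adipose), with exact Clopper-Pearson 95% intervals that cover counting error only, by tissue and transgene copies. Col1a1 to Col1a2 and Col4a1 to Col4a2 lie flat, the second between 1.36 and 1.52, while Col4a5 to Col4a6 lies above 12 in every brown and below 3 in every white library.

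Genes that make, bind or sense collagen were read in the same fits. Of 32 tested genes of collagen biosynthesis and processing, 23 were lower and none higher in white with 1 copy, and 24 lower and none higher with 2 copies, with medians of -0.96 and -1.17. Of all genes in white, 23.6% were lower and 28.4% higher with 1 copy, and 28.9% lower and 32.1% higher with 2 copies, which is the background of each list here. Bmp1, the procollagen C-proteinase, fell by -0.97 ± 0.093 with 1 copy (adjusted p = 5.60e-04) and -1.03 ± 0.093 with 2 copies, and Pcolce2, its enhancer, by -1.16 ± 0.12 and -1.58 ± 0.12. P4ha2, a subunit of the proline hydroxylase that stabilises the helix, fell by -2.03 ± 0.20 with 1 copy and Lox, which crosslinks fibrils, by -2.34 ± 0.17 with 2 copies. In brown none of 30 passed in any genotype comparison, with medians of -0.22 with 1 copy and -0.23 with 2 copies. Of 18 collagen-binding matrix partners in white, 14 were lower and 1 higher with 1 copy, and 15 lower and 1 higher with 2 copies. Lum, a keratan sulfate proteoglycan on fibrils, fell by -1.34 ± 0.097 with 1 copy, and Prelp, a related leucine-rich repeat protein, by -2.19 ± 0.12 with 2 copies. Fmod, fibromodulin, was the member that rose, by 3.31 ± 0.16 and 2.83 ± 0.16. Between the doses 5 partners were lower with 2 copies, among them Prelp (-1.46 ± 0.11, adjusted p = 0.0197), Nid2 (-1.36 ± 0.17) and Dpt (-0.71 ± 0.10). Of all genes in white, 1.83% were lower and 0.0327% higher between the doses. These partner calls were lost when any library of the 2 groups compared was left out. In brown the laminin chain gene Lamb1 was lower with 1 copy (-0.69 ± 0.11) and 2 copies (-0.69 ± 0.11), and Lum with 2 copies (-0.97 ± 0.18).

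Of 9 collagen receptors and uptake genes in white, 2 were higher and 4 lower with 1 copy, and 2 higher and 5 lower with 2 copies, against 52% and 61% of all genes called in either direction. Lair1, an inhibitory collagen receptor of leukocytes, rose by 1.91 ± 0.19 and 2.22 ± 0.19, Mrc2, which takes up collagen into fibroblasts, fell by -1.42 ± 0.16 and -1.66 ± 0.16, and the receptor kinase gene Ddr2 fell by -0.76 ± 0.089 and -0.70 ± 0.089. TGF-beta is the classical inducer of fibrillar collagen. Of its 12 tested ligand, receptor and target genes in white, 3 were higher and 3 lower with 1 copy, and 4 higher and 2 lower with 2 copies, 6 of 12 in each case and no more than the share of all genes. Tgfb1, also made by lymphocytes, rose by 1.44 ± 0.10 and 1.56 ± 0.10, and the inhibitor Smad7 by 2.35 ± 0.13 and 2.52 ± 0.13, alongside the lymphocyte markers, whose part was not tested. In brown none of the 7 receptor and none of the 12 TGF-beta genes passed in any genotype comparison.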

How the data were processed

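Per the labels, RNA was extracted with Trizol and columns, and a stranded mRNA kit was used for the libraries. Raw counts of reads per gene were deposited. STAR, featureCounts and Subread were named with build mm10, per the submitters' processing notes. Versions, annotation and the strand setting are not given in the sources used here. The table had 24541 rows and 12 columns, each mapped to a sample by its title.

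Computed here with R 4.3.3, edgeR 4.0.16, limma 3.58.1 and DESeq2 1.42.0 (alternative), and matplotlib 3.10.9 under Python 3.11.15: genes were filtered with filterByExpr, scaled with TMM factors and tested two-sided by the robust form of edgeR's quasi-likelihood test, with p-values adjusted (Benjamini-Hochberg) over all genes tested and a threshold of 0.05. Genotypes were compared within a tissue (6 libraries, 3 residual degrees of freedom, 13414 genes in brown and 15287 in white). Depots and interactions came from 1 fit of 12 libraries (15559 genes, 6 residual degrees of freedom). Values after ± are standard errors. CPM values use the TMM factors of the 12-library fit. Because the counting of overlapping transcripts on opposite strands is not known, Col4a1 and Col4a2, Col10a1 and Nt5dc1, Col9a3 and Tcfl5, and Col18a1 and Slc19a1 may share reads. The 2 libraries of each group differed by more than sampling noise, so none was counted as a duplicate. Replicate numbers follow sample order and pair nothing.

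The members, gene lists and tests were chosen with earlier results of these data known. Values in every library are given for the main type I, III, IV and VI chains, for collagens that passed a genotype comparison or interaction (the 12 with the smallest adjusted p where there were more) and for the 10 with the largest depot difference. Of the other lists, up to 3 members with the smallest adjusted p are named. The scripts' tests were tested on simulated data. Alternatives were another scaling, the DESeq2 Wald test, no filter or a mean CPM of at least 1, 1 fit of all libraries, and each library left out in turn.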

Additional observations from a re-analysis of the deposited data

Results flagged for a closer look

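The difference between transgenic and wild type libraries in a collagen gene varied between the depots by a direct test in 34 instances. These were 18 of 42 genes with 1 copy, against 32.6% of all genes, and 16 of 42 with 2 copies, against 42.2%. Muscle transcripts were high in brown wild type and not in brown transgenic libraries. Lymphocyte and lymph node transcripts were high in white transgenic and not in white wild type libraries. Genotype and tissue content cannot be told apart in this contrast. Values are the log2 fold change against wild type in brown minus that in white adipose tissue, from edgeR's quasi-likelihood test of all 12 libraries. With 1 copy they were Col11a2 (-1.53), Col12a1 (1.81), Col13a1 (1.83), Col14a1 (1.03), Col18a1 (1.21), Col1a2 (1.25), Col22a1 (-6.90), Col3a1 (1.31), Col4a1 (0.84), Col4a2 (0.89), Col4a3 (3.04), Col5a1 (1.22), Col5a2 (1.30), Col5a3 (0.97), Col6a1 (0.87), Col6a2 (1.04), Col6a3 (1.25) and Col8a2 (2.41). With 2 copies they were Col11a1 (1.82), Col11a2 (-1.94), Col13a1 (1.52), Col15a1 (0.73), Col18a1 (1.45), Col19a1 (6.75), Col23a1 (-1.11), Col3a1 (1.06), Col4a1 (1.76), Col4a2 (1.76), Col4a3 (2.95), Col5a1 (1.30), Col5a2 (1.29), Col5a3 (1.70), Col6a1 (1.00) and Col6a2 (1.00). The fitted values of Col22a1 with 1 copy and of Col19a1 with 2 copies rest on groups with 0 reads in both libraries (brown with 1 copy and white with 2 copies), so they depend on the fit and are no bounds. Col8a2, Col11a1, Col22a1 and Col19a1 had enough reads to be tested in 1 depot alone. Of the 18 calls with 1 copy 12, and of the 16 with 2 copies 7, were lost in at least 1 alternative. Those lost most often were Col6a3, Col8a2, Col1a2 and Col14a1 with 1 copy (in 9, 8, 8 and 8 alternatives) and Col15a1 and Col11a1 with 2 copies (10 and 6, adjusted p up to 0.176 and 0.324). These instances share the wild type libraries and are not independent of each other.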

How the results depend on the processing

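Of 221 collagen calls over all comparisons, 164 were kept in every alternative run in which the gene was tested, 57 were lost in at least 1 and none changed sign. A run whose filter removed the gene was not counted as a loss. By the DESeq2 Wald test 1 collagen gene passed in brown with 1 copy against wild type, 6 with 2 copies against wild type, 6 between the doses, and 4 between the doses in white. Of all genes 1044, 683, 974 and 1230 passed in the same order, where the main test gave 546, 173, 262 and 285. Without the filter 4 passed in brown with 2 copies against wild type (353 of all genes) and 3 between the doses in brown (516 of all genes). One fit of all 12 libraries gave 1 between the doses in brown (796 of all genes) and 4 in white (780). Median-of-ratios scaling gave 0 between the doses in white (247 of all genes). With each library left out in turn the counts ran from 0 to 5 (brown, 1 copy), 0 to 7 (brown, 2 copies), 0 to 3 (brown, between doses), 17 to 27 (white, 1 copy), 20 to 27 (white, 2 copies), 0 to 3 (white, between doses), 7 to 17 and 10 to 18 (interactions with 1 and 2 copies), 38 to 40 (depots, mean) and 26 to 31, 26 to 33 and 29 to 33 (the depots at 0, 1 and 2 copies). The cause was not tested. In these runs the spread of a group left with 1 library is taken from the other groups. No paired analysis was possible because libraries are numbered singly in the labels and nothing ties a library of one group to one of another. With 2 libraries a group, small changes such as those in brown are hard to detect, and genes under about 10 reads rest on counting noise.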

Other observations

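Ratios of collagen reads to the first gene of 3 marker lists were taken after the values above had been seen, and are given as descriptions without a test. Per read of the adipocyte gene Adipoq, Col4a1 stood at 0.896 to 1.08 in the 6 white libraries and at 0.74 to 1.18 in the 6 brown ones, so the depots overlapped and the highest of the 12 values was 1.59 times the lowest. Col4a2 per Adipoq read was 0.602 to 0.74 in white and 0.52 to 0.841 in brown. Col1a1 per Adipoq read was 0.552 to 1.34 in white and 0.0975 to 0.168 in brown, and Col6a3 0.184 to 0.394 and 0.0815 to 0.134, so the depots did not overlap for these chains and did overlap for the type IV pair. By genotype in white, Col1a1 per Adipoq read was 1.05 and 0.72 in wild type, 0.552 and 0.715 with 1 copy and 1.15 and 1.34 with 2 copies. Col3a1 per Adipoq read was 2.66 and 2.01, 1.54 and 2.02 and 2.47 and 2.96 in the same order. Per Adipoq read, Col1a1 was thus highest with 2 copies and Col3a1 with 2 copies overlapped with wild type. Adipoq itself was lower in the white transgenic libraries. Per read of the fibroblast and progenitor gene Pdgfra, Col1a1 was 23.3 and 18.7 in white wild type, 10.8 and 12.8 with 1 copy and 13.3 and 11.4 with 2 copies, with no overlap between wild type and transgenic libraries. Col4a1 per Pdgfra read was 22.9 and 24.2, 17.6 and 17.3 and 11.4 and 9.21 in the same groups. Pdgfra is 1 gene of a list whose members moved in both directions. Thy1 and Dpp4 had more reads in the white transgenic libraries and Pdgfra fewer, so the Pdgfra ratios do not stand for the list. Per read of the endothelial gene Pecam1, Col4a1 was 10.3 and 8.17, 3.3 and 3.07 and 2.5 and 1.74. Pecam1 itself went against most of its list, with 4240 and 4238 reads in white wild type, 6602 and 5801 with 1 copy and 4880 and 6248 with 2 copies, while the summed level of the 6 endothelial markers was lower in the transgenic libraries, so this ratio overstates the fall relative to the list. All genes of a library share its depth and composition, and the source cells of each transcript were not measured.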
